A study of Mus musculus with 6 samples.

Results

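The 48 genes described here encode the complement and coagulation factors of plasma with their regulators and receptors. They were taken by symbol from a fixed list, and all 48 were among the 18419 genes with at least 1 assigned fragment and among the 13431 genes that passed the filter on low counts. By textbook knowledge of where each protein is made, 37 were grouped as hepatocyte-made, 6 as macrophage-made (C1qa, C1qb, C1qc, Cfp, C3ar1 and C5ar1) and 5 as of other or mixed source (Cfd, F3, Plau, Plat and Thbd).

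Bulk RNA-seq was performed on whole livers of 6 Mettl14f/f males (C57BL/6J background), 3 per group. The mice were put on a HFD at 8 weeks of age for 10 weeks, then transduced by tail vein injection with AAV8-TBG-GFP (labelled WT) or AAV8-TBG-Cre (labelled METTL14 KO), and RNA was extracted 8 weeks later. METTL14 is a subunit of the enzyme complex that writes the m6A mark on RNA, and both groups carried the floxed allele, the AAV8 capsid, the TBG promoter and the diet. The TBG promoter is active in hepatocytes, so cells of other types were not targeted and their RNA is part of each library. In whole-liver RNA, fewer cells of a type and less RNA per cell cannot be told apart.

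Complement is a cascade of plasma proteases that ends in a membrane pore, started by antibody-bound C1q (classical pathway), by sugar-binding lectins (lectin pathway) or by spontaneous turnover of C3 amplified by factors B and D (alternative pathway). Coagulation is a parallel protease cascade in which tissue factor or the contact system leads through factor X to thrombin, which turns fibrinogen into fibrin, while protein C, protein S and plasmin limit it. Hepatocytes secrete most of these proteins, whereas Kupffer cells and other macrophages are the main source of C1q in liver.

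Between 20356459 and 21010524 expected counts were assigned per library, and the 48 genes together took 3.92% to 5.00% of them. Mettl14, the targeted gene, was at 6.30, 6.43 and 5.81 CPM (counts scaled to library size with TMM normalization) in the AAV8-TBG-GFP libraries and at 4.96, 5.38 and 4.86 CPM in the AAV8-TBG-Cre libraries. In CPM the groups did not overlap, as for 13% of all genes in this direction. Per transcript length they overlapped, at 2.31, 2.31 and 2.01 FPKM in the AAV8-TBG-GFP and 1.92, 2.40 and 1.82 FPKM in the AAV8-TBG-Cre libraries. The log2 fold change of -0.29 did not pass either threshold (edgeR quasi-likelihood test, Benjamini-Hochberg adjusted p = 0.337). The libraries labelled AAV8-TBG-Cre are therefore named by that label. Counts per gene do not show whether the floxed exons were lost. All 10 hepatocyte markers, Alb included, were measured at high levels, and their median log2 fold change was -0.17. Of the 10, 2 were lower (Ttr and Apoa2), 8 neither and none higher, against 8.41% lower and 12% higher among all genes. Libraries are named below by vector and replicate number (GFP 1 to 3 and Cre 1 to 3). Nothing in the labels pairs animals across groups, and whether each library is a separate mouse rests on the study's description.

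The question was which complement and coagulation genes differed in AAV8-TBG-Cre livers from AAV8-TBG-GFP livers. Calls were made at an unadjusted p-value under 0.05 combined with a fold of 1.2 or more, and also at an adjusted p-value under 0.05. The 3 C1q chains, the anaphylatoxin receptors C3ar1 and C5ar1, Plat and Pros1 were higher in AAV8-TBG-Cre livers, and Cfd, Mbl2 and C8g were lower. The 7 genes called higher were 14.6% of the 48, against 12% of all genes tested, and the 3 called lower were 6.25%, against 8.41%. The shares among the 48 were near those of all genes. At an adjusted p-value under 0.05, Cfd alone was called, lower, against 0.447% of all genes lower and 0.484% higher. In CPM the groups did not overlap for 7 higher and 4 lower genes (Masp2 beside those called), against 14% and 13% of all genes. In FPKM, Mbl2 and C8g overlapped.

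**Figure D1:**
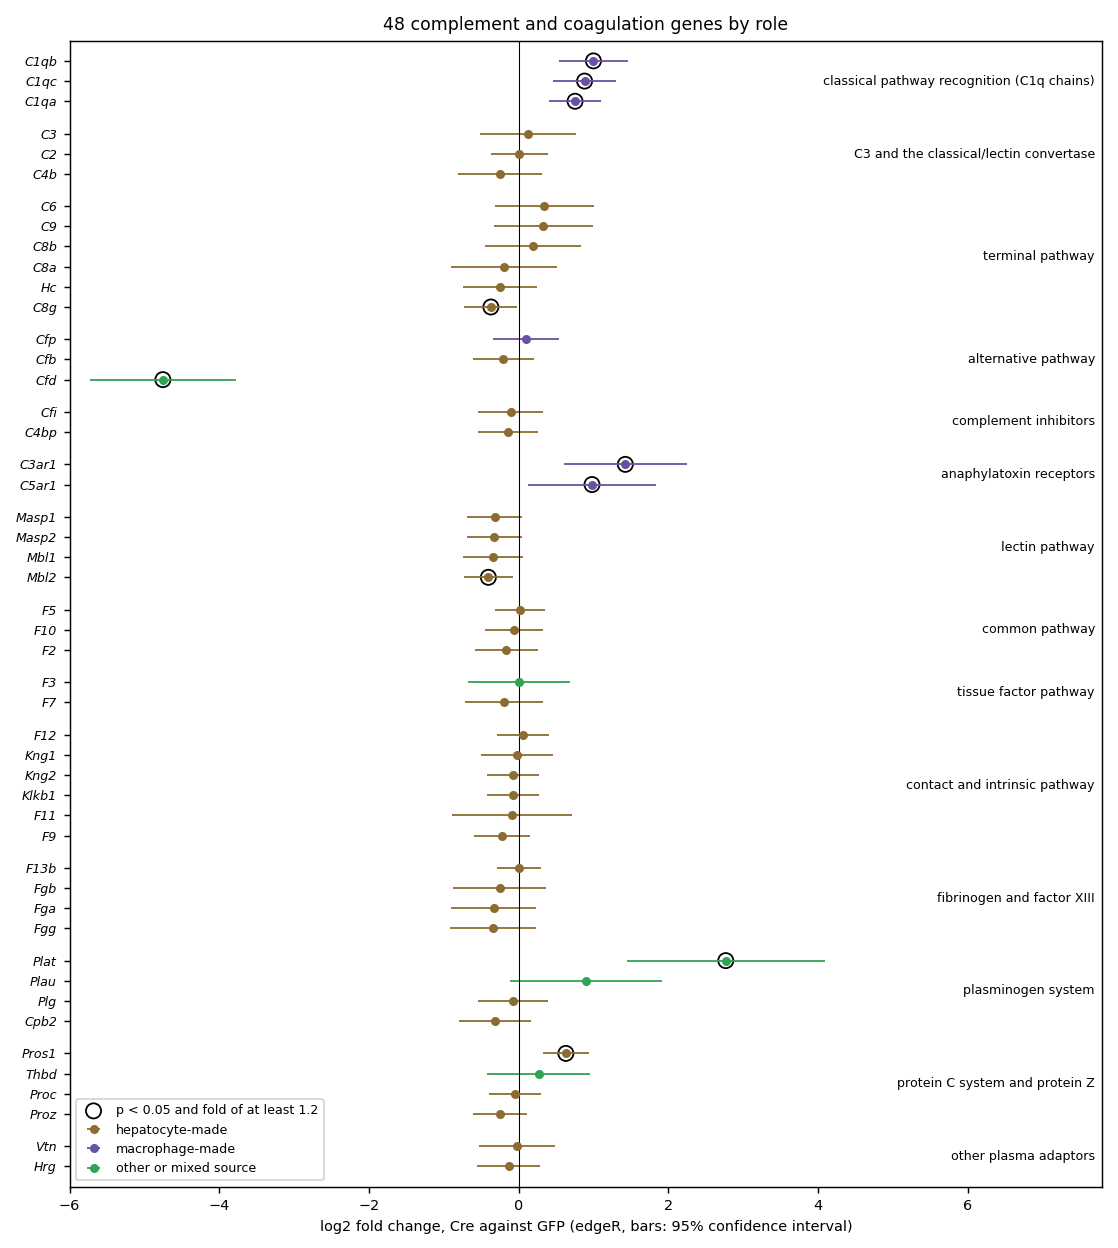
log2 fold change of each of the 48 genes (x axis, AAV8-TBG-Cre against AAV8-TBG-GFP, n = 3 livers each) with its 95% confidence interval, ordered by role, coloured by source and circled where called. The C1q chains, C3ar1, C5ar1, Plat and Pros1 lie to the right of 0, Cfd lies at -4.75, and 36 of the 37 hepatocyte-made genes have an interval within a 2-fold change either way.

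Several of these genes lie in clusters. C1qa, C1qc and C1qb are neighbours on chromosome 4, with 2979 and 3600 bases between them, and Fgb, Fga and Fgg are neighbours on chromosome 3, with 8618 and 11096 bases between them (RefSeq, GRCm38.p6, the assembly of mm10). Promoters, from 250 bases before to 50 after the gene's start, were matched in RefSeq for 36 of the 48 genes. A pair of short motifs was searched on both strands. The letters GTTAAT are the core of the site bound by the hepatocyte factor HNF1. The letters GAGGAA are a core of the site bound by the macrophage factor PU.1, and matches of the motifs did not overlap in the promoters shown. The HNF1 letters were found in 10 of 29 promoters of hepatocyte-made genes (34.5%) and in 1 of 5 of macrophage-made genes, against 7.2% of all 27025 promoters. The PU.1 letters were found in 3 of 5 promoters of macrophage-made genes and in 2 of 29 of hepatocyte-made genes (6.9%), against 28.3% of all promoters. Neither was found in the 2 matched promoters of genes of other source. A match says only that these letters are in the window.

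The promoters of a pair of C1q genes and of the 3 fibrinogen genes are shown because the genes of each set shifted in the same direction in each Cre library. The shifts are described below, and those of the C1q chains were not of equal size. Whether the matches bear on these levels was not tested. They are written 5′ to 3′ on the strand of the gene, with matches in capitals. C1qb is at chr4:136886151-136886450 (minus strand), C1qc at chr4:136892865-136893164 (minus strand), Fga at chr3:83025903-83026202 (plus strand), Fgb at chr3:83049814-83050113 (minus strand) and Fgg at chr3:83007474-83007773 (plus strand), all GRCm38.p6.
C1qb: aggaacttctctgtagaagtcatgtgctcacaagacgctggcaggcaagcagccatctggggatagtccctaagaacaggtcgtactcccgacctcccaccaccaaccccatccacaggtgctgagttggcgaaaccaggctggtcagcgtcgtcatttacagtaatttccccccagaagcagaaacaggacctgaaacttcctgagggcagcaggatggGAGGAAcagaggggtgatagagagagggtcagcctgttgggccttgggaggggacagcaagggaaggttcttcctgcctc
C1qc: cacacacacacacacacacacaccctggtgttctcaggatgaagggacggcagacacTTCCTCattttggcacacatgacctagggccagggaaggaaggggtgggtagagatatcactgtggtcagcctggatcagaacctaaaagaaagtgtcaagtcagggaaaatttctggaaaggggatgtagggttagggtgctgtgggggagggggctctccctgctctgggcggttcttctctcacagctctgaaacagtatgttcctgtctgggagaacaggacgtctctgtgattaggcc
Fga: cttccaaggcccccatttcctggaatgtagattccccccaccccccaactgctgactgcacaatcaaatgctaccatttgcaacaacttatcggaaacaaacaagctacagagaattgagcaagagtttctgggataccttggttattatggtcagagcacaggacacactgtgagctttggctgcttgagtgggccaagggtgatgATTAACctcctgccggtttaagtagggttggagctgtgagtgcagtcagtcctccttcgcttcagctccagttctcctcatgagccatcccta
Fgb: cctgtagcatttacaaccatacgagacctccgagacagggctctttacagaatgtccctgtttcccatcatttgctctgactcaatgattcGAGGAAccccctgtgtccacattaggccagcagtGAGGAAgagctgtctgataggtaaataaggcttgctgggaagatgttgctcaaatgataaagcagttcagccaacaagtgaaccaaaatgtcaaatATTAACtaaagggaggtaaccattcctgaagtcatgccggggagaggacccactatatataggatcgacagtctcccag
Fgg: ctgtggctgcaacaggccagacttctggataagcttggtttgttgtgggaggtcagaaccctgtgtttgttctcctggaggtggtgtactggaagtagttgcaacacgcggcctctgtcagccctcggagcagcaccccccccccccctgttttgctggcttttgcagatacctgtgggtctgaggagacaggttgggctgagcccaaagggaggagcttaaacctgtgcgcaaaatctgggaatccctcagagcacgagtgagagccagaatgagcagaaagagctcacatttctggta
The capitals mark 1 GAGGAA each in C1qb and in C1qc, where it is on the other strand. They mark 1 GTTAAT on the other strand in Fga and in Fgb and 2 GAGGAA in Fgb, while Fgg had no match in this window.

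C1q, the recognition unit of the classical pathway, is assembled from equal numbers of A, B and C chains. C1qa was at 45.0, 44.8 and 40.5 CPM in GFP livers and at 64.0, 89.5 and 66.1 CPM in Cre livers. C1qb was at 45.5, 40.9 and 39.6 CPM in GFP livers and at 68.8, 113 and 70.5 CPM in Cre livers. C1qc was at 40.5, 37.0 and 35.3 CPM in GFP livers and at 58.6, 89.9 and 59.3 CPM in Cre livers. Every Cre library was above every GFP library for each chain, and Cre 2 was the highest of the 6. The log2 fold changes were 0.75 ± 0.15 (SE) for C1qa, 1.00 ± 0.20 for C1qb and 0.88 ± 0.18 for C1qc, with adjusted p-values of 0.0595, 0.0611 and 0.0619. The median over the chains was 0.88, and without Cre 2 it was 0.64, with all 3 chains still called.

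Per transcript length, the chains were near 1:1:1 in GFP livers. The ratio of C1qa to C1qb in FPKM was 1.02 ± 0.0527 (SD, n = 3) in GFP livers and 0.871 ± 0.0794 in Cre livers. The ratio of C1qc to C1qb was 0.895 ± 0.00740 in GFP livers and 0.829 ± 0.0285 in Cre livers. Both ratios, which do not depend on library scaling, were lower in every Cre library than in any GFP library, which for 3 against 3 has an exact two-sided permutation p of 0.1, the smallest possible. Per 1000 FPKM summed over the hepatocyte-made genes, the C1q chains summed to 7.73, 6.79 and 5.43 FPKM in GFP livers and to 9.42, 21.3 and 11.7 FPKM in Cre livers.

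The receptors for the anaphylatoxins C3a and C5a, which are carried mainly by myeloid cells, were low but higher in Cre livers. C3ar1 was at 4.57, 2.60 and 3.72 CPM in GFP livers and at 6.30, 14.7 and 8.23 CPM in Cre livers (log2 fold change 1.43 ± 0.35 SE, adjusted p = 0.0854). C5ar1 was at 1.63, 2.04 and 0.995 CPM in GFP livers and at 2.39, 4.35 and 2.45 CPM in Cre livers (0.98 ± 0.37, adjusted p = 0.188), with counts of 19 to 106 per library. As for C1q, Cre 2 was highest for both. C5ar1 was no longer called without GFP 1, GFP 3 or Cre 2. The sixth macrophage-made gene, Cfp, which encodes properdin, the stabilizer of the alternative convertase, was at 15.9 to 21.7 CPM in GFP and 15.9 to 25.1 CPM in Cre livers (0.10 ± 0.19, adjusted p = 0.809).

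Other macrophage genes moved with C1q. Of 12 macrophage and Kupffer cell markers, 9 were called higher and none lower, against 12% and 8.41% of all genes, with a median log2 fold change of 0.65, against -0.0065 over all genes tested. Their summed level was 346 to 357 CPM in GFP livers and 483 to 741 CPM in Cre livers, highest in Cre 2. Cd5l had an adjusted p of 0.0471, whereas the Kupffer cell markers Clec4f (0.29, adjusted p = 0.431) and Timd4 (0.29, adjusted p = 0.571) and the macrophage receptor Marco (-0.75, adjusted p = 0.380) were not called. The part of these cells in the C1q, C3ar1 and C5ar1 results was not tested.

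**Figure D2:**
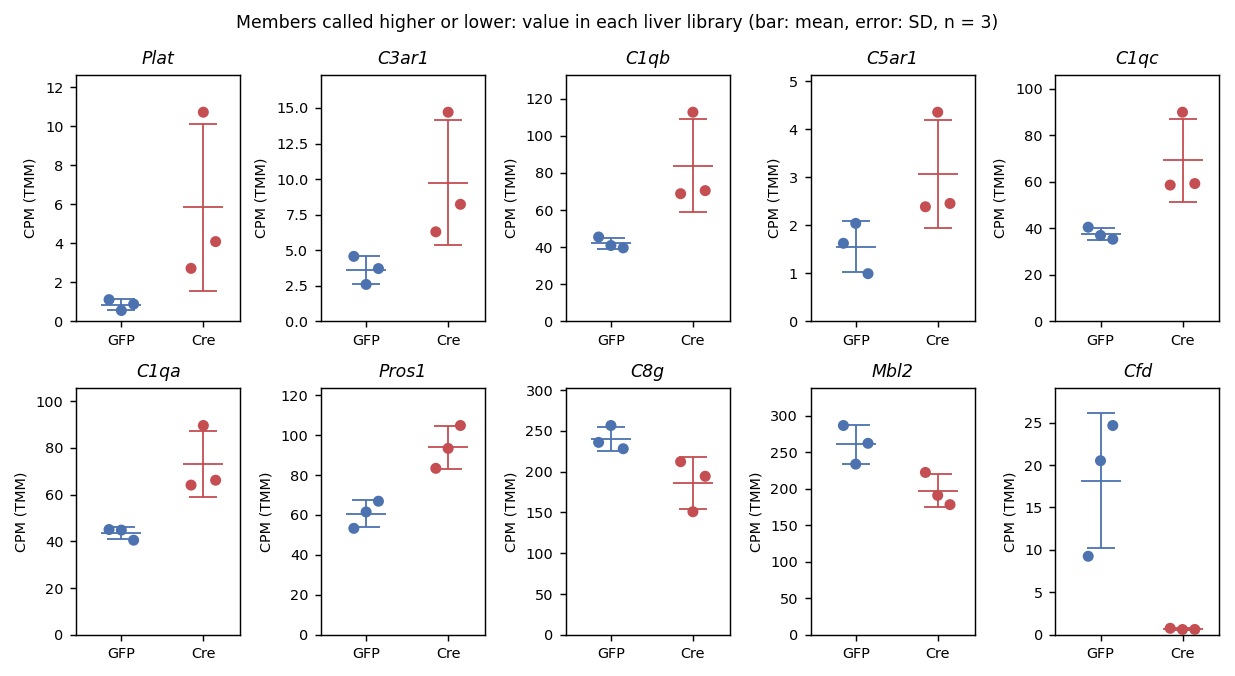
CPM (y axis, linear, from 0) of the 10 called genes in each liver library, by vector (x axis), with the mean and SD of 3 libraries per group. No gene overlaps between groups, and Cre 2 is the highest point for the C1q chains, C3ar1, C5ar1 and Plat.

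In the alternative pathway, Cfd was the gene with the largest change among the 48. Cfd encodes factor D (adipsin), the protease that cleaves factor B, and is known as a product of adipocytes. It was at 9.25, 20.5 and 24.7 CPM in GFP livers and at 0.764, 0.616 and 0.626 CPM in Cre livers, from 182, 402 and 471 counts against 16, 15 and 13. All Cre libraries were low and close to each other, while among the GFP libraries GFP 1 was low. The level was 27.0-fold lower in Cre livers (log2 fold change -4.75 ± 0.42 SE, adjusted p = 0.0149). The adjusted p was above 0.05 in 4 of 17 alternatives, at 0.0827 without GFP 2, 0.0559 without Cre 2, 0.0539 without Cre 3 and 0.0598 in limma on log2(FPKM + 1) without a filter. Cfd was called at the unadjusted threshold in all 17, and its log2 fold change was -3.38 in limma on log2(FPKM + 1). The counts were split between a pair of near-equal transcripts of 924 and 927 bases. The 927-base transcript NM_013459 had 134, 162 and 224 expected counts in GFP livers and was listed at 0 in all 3 Cre livers, and the split between such similar sequences is uncertain.

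Adipocyte markers were examined because Cfd is an adipocyte product. The defining markers Adipoq, Plin1 and Retn were under the filter on low counts in these livers. Of the 5 markers tested, 1 was lower (Pparg) and none higher, against 8.41% and 12% of all genes, and their summed level was 106 to 116 CPM in GFP livers and 58.3 to 90.0 CPM in Cre livers. Their median log2 fold change was -0.44. Fabp4 was at 0.11 (adjusted p = 0.828) and Cidec, also expressed by fat-laden hepatocytes, at -1.17 (adjusted p = 0.241). Whether the Cfd transcripts came from adipocytes or hepatocytes was not tested.

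Cfb, which encodes the factor B that factor D cleaves, was not called (log2 fold change -0.20 ± 0.18, adjusted p = 0.559). The plasma inhibitors Cfi and C4bp, which degrade or displace the convertases, were not called either, at -0.11 ± 0.19 and -0.14 ± 0.17.

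All 4 lectin pathway genes had a lower mean in Cre livers, and Mbl2 was called. Mbl2 encodes mannose-binding lectin C and was at 286, 233 and 262 CPM in GFP livers and at 222, 191 and 178 CPM in Cre livers (log2 fold change -0.40 ± 0.14 SE, adjusted p = 0.163). Masp2, the protease that cleaves C4 and C2, was at 305, 332 and 331 CPM in GFP livers and at 301, 209 and 263 CPM in Cre livers (-0.33 ± 0.16, adjusted p = 0.288). The groups did not overlap for either gene in CPM, but GFP 1 and Cre 1 were close for Masp2. In FPKM the groups overlapped for Mbl2, at 263, 211 and 227 in GFP livers and 215, 213 and 167 in Cre livers. Mbl1 and Masp1 gave -0.34 ± 0.17 and -0.32 ± 0.16, with an adjusted p of 0.303 for both. Mbl2 was not called in 5 of 17 alternatives, among them every limma fit on FPKM. The shorter Masp2 transcript, which encodes the protease-free protein MAp19, took 30.4% to 33.8% of the gene's expected counts over the 6 livers.

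C3, the central component, was the most expressed complement gene per length, at 1603 ± 476 FPKM (SD, n = 3) in GFP and 1981 ± 134 FPKM in Cre livers. It was at 7873, 6653 and 12174 CPM in GFP livers and at 9931, 9403 and 9824 CPM in Cre livers. The GFP libraries enclosed all Cre libraries, and the log2 fold change of 0.13 ± 0.27 had a 95% confidence interval from -0.51 to 0.76 (adjusted p = 0.829). C2 and C4b, which form the classical and lectin convertase, gave 0.0061 ± 0.16 and -0.25 ± 0.24. The summed expected counts of C4b were not whole in any of the 6 libraries, and its near copy C4a is described with the pathway genes below.

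The terminal pathway genes did not move together. C8g, the gamma chain of C8, was at 236, 257 and 228 CPM in GFP livers and at 212, 151 and 194 CPM in Cre livers (log2 fold change -0.37 ± 0.15 SE, adjusted p = 0.221). The groups did not overlap in CPM but did in FPKM, at 225, 240 and 205 in GFP livers and 214, 177 and 190 in Cre livers. C8g lost its call in 11 of 17 alternatives, among them every limma fit on FPKM. C9, which forms the wall of the pore, was at 327, 385 and 357 CPM in GFP livers and at 632, 269 and 444 CPM in Cre livers (0.33 ± 0.28, adjusted p = 0.552). Cre 1 was the highest and Cre 2 the lowest of all 6 libraries for C9. C6 was at 0.34 ± 0.28, C8b at 0.19 ± 0.28, C8a at -0.20 ± 0.31 and Hc, which encodes C5, at -0.25 ± 0.21. The ratio of C9 to C8a in FPKM was 1.26 ± 0.190 (SD, n = 3) in GFP livers and 1.81 ± 0.166 in Cre livers, without overlap. Apart from this ratio and those of the C1q chains, the ratios taken overlapped between groups. These were C8b and C8g to C8a, Fga and Fgg to Fgb, Mbl1 to Mbl2, Kng2 to Kng1 and C3 to Hc. The share of all gene pairs whose ratio does not overlap was not counted. Without Cre 2, C9 (0.59) and C8b (0.46) were called higher. In that fit 8 of the 48 genes were called higher, a larger share than the 8.19% of all genes (1108 of 13527).

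Among the coagulation genes, Pros1 and Plat were called. Pros1 encodes protein S, the cofactor of activated protein C, and was at 53.3, 61.5 and 66.9 CPM in GFP livers and at 83.4, 93.4 and 105 CPM in Cre livers. Every Cre library was above every GFP library, and the log2 fold change was 0.63 ± 0.13 (SE, adjusted p = 0.0632). Pros1 was the only hepatocyte-made gene of the 37 called higher, and it was called in every alternative. The other genes of this system, Proc (-0.047 ± 0.15), Proz (-0.25 ± 0.16) and the endothelial receptor Thbd (0.27 ± 0.30), were not called.

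Plat, which encodes tissue plasminogen activator, was at 1.12, 0.561 and 0.890 CPM in GFP livers and at 2.72, 10.7 and 4.09 CPM in Cre livers, from 11 to 22 and 57 to 261 counts. The level was 6.81-fold higher in Cre livers (log2 fold change 2.77 ± 0.57 SE, adjusted p = 0.0619), with the highest value in Cre 2. Without Cre 2 the log2 fold change was 1.98, and in limma on log2(FPKM + 1), a scale that understates changes of low genes, it was 1.27, with Plat called in both. Plau, which encodes urokinase, was at 1.12, 1.63 and 1.78 CPM in GFP livers and at 1.34, 4.35 and 2.74 CPM in Cre livers (0.90 ± 0.44, adjusted p = 0.291), and the groups overlapped. Their substrate plasminogen, Plg, gave -0.078 ± 0.20, and Cpb2, which protects fibrin from plasmin, gave -0.31 ± 0.21. Markers of some other liver cell types were also higher. All 8 cholangiocyte markers were higher (median log2 fold change 2.45), as were 4 of 8 stellate cell and fibroblast markers (0.71). These 4 were Lum, Col1a1, Col3a1 and Pdgfrb, whereas Dcn (0.38), Des (0.13), Reln (-0.10) and Lrat (-0.25) were not called. Of 8 endothelial markers 1 was lower and none higher (-0.31). Of the 4 neutrophil markers tested, 3 were higher (1.22). Among all genes 12% were higher and 8.41% lower, so that the endothelial count is near the background. Their part in the Plat result was not tested.

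The summed level of cholangiocyte markers was 50.4 to 104 CPM in GFP and 273 to 544 CPM in Cre livers. That of stellate cell and fibroblast markers was 224 to 337 and 422 to 887 CPM, that of endothelial markers 143 to 224 and 145 to 172 CPM, and that of neutrophil markers 9.03 to 10.6 and 14.4 to 17.8 CPM. The cholangiocyte and the stellate cell sums were highest in Cre 2.

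Fibrinogen, the substrate of thrombin, had the highest levels per length of the 48 genes, with Fgb at 2262 ± 221 FPKM (SD, n = 3), Fgg at 1826 ± 120 FPKM and Fga at 1773 ± 196 FPKM in GFP livers. Fga was at 4769, 5491 and 6296 CPM in GFP livers and at 5601, 3437 and 4095 CPM in Cre livers. Fgb was at 3554, 4279 and 4504 CPM in GFP livers and at 4712, 2507 and 3130 CPM in Cre livers. Fgg was at 3069, 3555 and 3478 CPM in GFP livers and at 3582, 1991 and 2396 CPM in Cre livers. In all 3 chains Cre 1 lay within or above the GFP range and Cre 2 and Cre 3 below it. The log2 fold changes were -0.33 ± 0.25 (SE), -0.25 ± 0.27 and -0.34 ± 0.25, with adjusted p-values of 0.490, 0.638 and 0.485. Fga was at 0.783 ± 0.0361 of Fgb in FPKM in GFP livers and at 0.748 ± 0.0542 in Cre livers, so the ratio overlapped between groups while the chains moved together.

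F2, which encodes prothrombin, was at 1787, 1843 and 2057 CPM in GFP livers and at 1944, 1418 and 1709 CPM in Cre livers (log2 fold change -0.17 ± 0.18 SE, 95% confidence interval -0.59 to 0.26, adjusted p = 0.652). The other common pathway genes F5 and F10 gave 0.021 ± 0.14 and -0.065 ± 0.17. In the tissue factor pathway, F7 gave -0.20 ± 0.22 and F3, which encodes tissue factor itself, 0.0051 ± 0.29. None of the 6 contact and intrinsic pathway genes was called, with log2 fold changes from -0.22 (F9) to 0.055 (F12), and Klkb1, Kng1, Kng2 and F11 between. F13b, the carrier subunit of factor XIII, gave 0.0041 ± 0.13, and the adhesive plasma proteins Hrg and Vtn gave -0.13 ± 0.18 and -0.020 ± 0.22. The shorter F9 transcript took 4.04% to 15.2% of the gene's expected counts in GFP livers and 18.0% to 26.7% in Cre livers, without overlap. The F9 transcripts have 2621 and 2735 bases, and the split of fragments between them is an uncertain estimate. Of the 14 genes with more than 1 transcript, only F9 and Cfd had shares without overlap. The same count over all genes was not made.

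The 7 genes whose products carry gamma-carboxyglutamate (F2, F7, F9, F10, Proc, Pros1 and Proz), the vitamin K-dependent modification, were described as a group. Of these 1 was higher (Pros1), none lower and 6 neither, near the 12% higher among all genes, with a median log2 fold change of -0.17. Their summed level was 3373 ± 213 CPM (SD, n = 3) in GFP livers and 3074 ± 481 CPM in Cre livers.

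Among all 37 hepatocyte-made genes, 1 was called higher, 2 lower and 34 neither, against 12% higher and 8.41% lower among all genes. The log2 fold changes of these 34 ranged from -0.34 to 0.34, with adjusted p-values of 0.288 or more. The median of the 37 was -0.13, against -0.0065 over all genes, and 28 of 37 were negative, against 6846 of 13431 among all genes. The 37 genes were measured in the same livers, so this count of signs is not a test. The median turned to 0.025 in limma on log2(FPKM + 1), where that of all genes was 0.112, and to 0.0058 without Cre 2. The hepatocyte-made genes took 3.91%, 3.99% and 4.81% of all expected counts in GFP livers and 4.98%, 4.11% and 4.08% in Cre livers.

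The Cre libraries differed from each other in these genes. Against the mean of the GFP libraries, the median shift of the 37 genes was 0.091 in Cre 1, -0.41 in Cre 2 and -0.12 in Cre 3 on the log2 scale. Cre 2 was the lowest of all 6 libraries for 31 of 37 genes, and Cre 1 was above Cre 2 for 36 of 37 (the exception is Pros1). The same counts over all genes were not made. The TMM-scaled CPM summed over all genes tested was also lowest in Cre 2, at 848734, against 979496 to 1095200 in the other libraries. The median shift of the C1q chains was 0.64, 1.26 and 0.66 in Cre 1, Cre 2 and Cre 3. In TMM-scaled CPM, Cre 2 thus had the lowest median of the hepatocyte-made genes and the highest of the C1q chains, whereas as a share of all expected counts the hepatocyte-made genes were lowest in GFP 1.

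**Figure D3:**
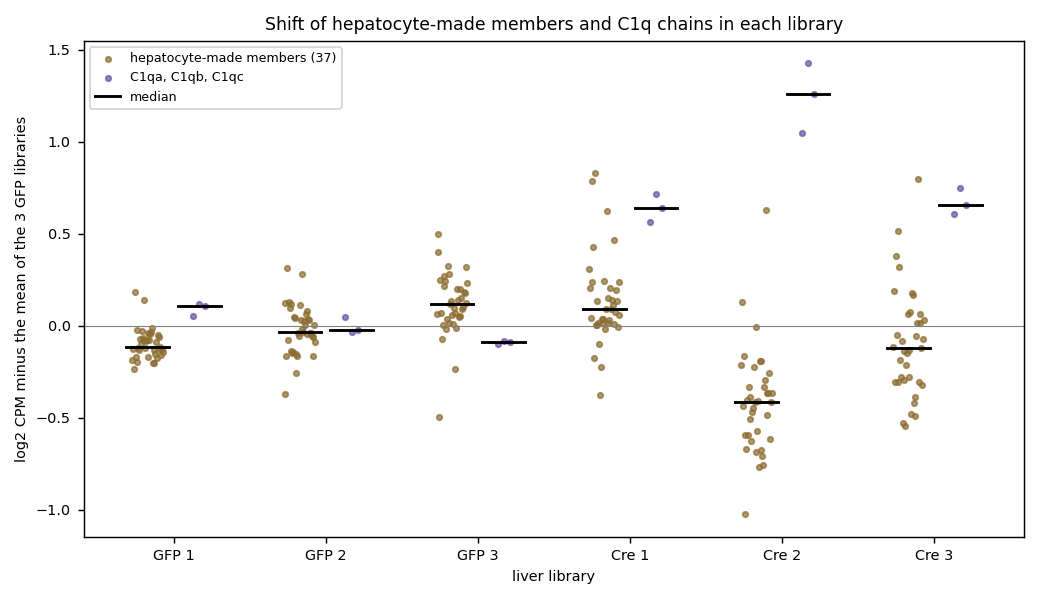
log2 CPM of the 37 hepatocyte-made genes and the 3 C1q chains in each library (x axis) minus the mean of the 3 GFP libraries (y axis), with medians as bars. The C1q chains lie above 0 in all 3 Cre libraries, whereas the hepatocyte-made median lies at 0.091, -0.41 and -0.12.

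Leaving out Cre 1 changed the calls. Without it, 12 of the 48 genes were lower (25%), against 12.5% of all genes, 8 were higher (16.7%, with Plau added), against 14.8%, and 8 had an adjusted p-value under 0.05 (C1qa, C1qb, C1qc, C3ar1, Plat, Pros1, Cfd and Masp1), against 6.78%. The 12 were Cfd, Mbl2, C8g, Masp1, Masp2, Fga, Fgb, Fgg, F7, F11, Proz and Cpb2. The log2 fold changes without Cre 1 were -0.55 for Fga, -0.55 for Fgb, -0.62 for Fgg, -0.52 for Masp1 and -0.64 for F11. None of the fibrinogen genes was called in any of the other 16 alternatives. Which of the Cre libraries stands for the group was not tested.

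The labels give a shorter library number to GFP 1, GFP 2 and Cre 1 and a longer one to GFP 3, Cre 2 and Cre 3, and what these forms mean is not stated. Within each form the C1q chains were higher in Cre livers, with log2 ratios of group means of 0.51, 0.67 and 0.60 for C1qa, C1qb and C1qc in the shorter form and 0.94, 1.21 and 1.08 in the longer form. Cfd (-4.28 and -5.31), Pros1 (0.54 and 0.57), Plat (1.70 and 3.06), C3ar1 (0.81 and 1.63), C5ar1 (0.38 and 1.78), Mbl2 (-0.23 and -0.51) and C8g (-0.21 and -0.40) also kept their direction. These genes and the C1q chains did not overlap between groups in CPM, so any split of the libraries had to keep their direction on that scale. In FPKM the groups overlapped for Mbl2 and C8g. The genes given below that changed sign all overlapped between groups. With the name form as covariate, C6 (0.58) was called higher and Mbl1 (-0.42) lower, and C8g was no longer called. The fibrinogen chains Fga, Fgb and Fgg did not keep their direction, with 0.13, 0.27 and 0.11 in the shorter form and -0.74, -0.68 and -0.67 in the longer form. C3 (0.45 and -0.34), C8a (0.36 and -0.70), F2 (0.099 and -0.40), F7 (0.27 and -0.53), F11 (0.50 and -0.38) and Cpb2 (0.16 and -0.78) changed sign likewise. Each form holds 3 libraries, too few for a test within it.

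**Figure D4:**
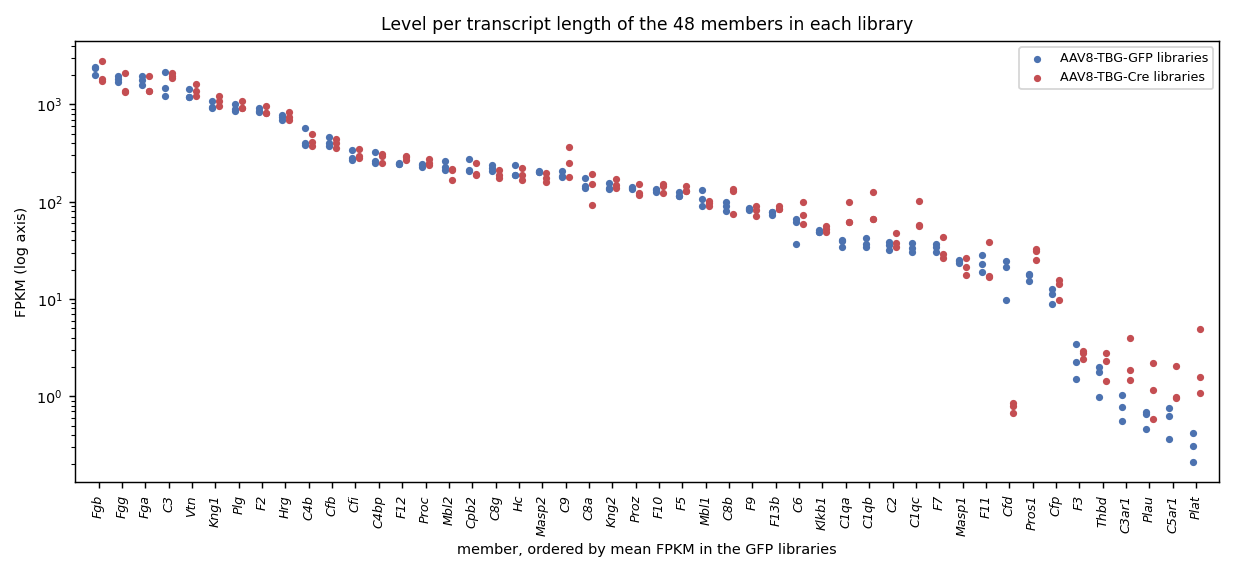
FPKM (y axis, log scale) of the 48 genes in each of 6 liver libraries, ordered along the x axis by the mean over GFP livers. Levels run from 2262 FPKM for Fgb to 0.313 FPKM for Plat, and Cfd is the gene whose Cre libraries lie farthest below its GFP libraries.

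Per length in GFP livers, 5 genes were above 1000 FPKM (Fgb, Fgg, Fga, C3 and Vtn), 22 between 100 and 1000 FPKM, 15 between 10 and 100 FPKM and 6 under 10 FPKM (F3, Thbd, C3ar1, Plau, C5ar1 and Plat). Of the 47 pairs of neighbours in this order, 30 differed by less than the larger of their SDs, among them Fgg and Fga. C1qa, C1qb and C1qc, at 38.4 ± 3.34, 37.9 ± 3.78 and 33.9 ± 3.30 FPKM (SD, n = 3), lay together at ranks 33, 34 and 36, and C1qa and C1qb were not separated by their spread.

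Of 50 further genes of the 2 cascades, 41 passed the filter, 4 were higher (Vsig4, which is also among the macrophage markers, Plaur, F2r and F2rl1), 6 lower (C4a, Cd59a, Colec10, Tfpi2, Hgfac and Ggcx) and 31 neither, against 12% higher and 8.41% lower among all genes, with none at an adjusted p-value under 0.05. Their median log2 fold change was -0.10. The 6 with the smallest p-values are given here. F2rl1, the protease-activated receptor PAR2, was at 0.306 to 0.762 CPM in GFP and 1.49 to 3.53 CPM in Cre livers (2.20 ± 0.51, adjusted p = 0.0766). Cd59a, which blocks pore assembly, was at 72.7 to 84.6 CPM in GFP and 46.0 to 63.2 CPM in Cre livers (-0.54 ± 0.14, adjusted p = 0.0886). Colec10, a lectin that acts with the MASPs, was at 8.11 to 14.3 and 5.87 to 6.79 CPM (-0.84 ± 0.22, adjusted p = 0.0896). Ggcx, the enzyme of gamma-carboxylation, was at 67.5 to 73.6 and 45.9 to 60.6 CPM (-0.43 ± 0.13, adjusted p = 0.122). Tfpi2, a protease inhibitor, was at 33.7 to 40.7 and 21.7 to 31.5 CPM (-0.50 ± 0.16, adjusted p = 0.138). These 5 did not overlap between groups, which their choice by smallest p-value made likely. Of all 41 tested, 3 were higher and 7 lower without overlap, against 14% and 13% of all genes. C4a was at 75.4, 91.6 and 19.6 CPM in GFP livers and at 22.7, 9.65 and 17.2 CPM in Cre livers (-1.92 ± 0.55, adjusted p = 0.115), and the groups overlapped. C4a and C4b are near-identical copies, so the split of fragments between them is uncertain.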

How the data were processed

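Bulk RNA-seq libraries of 6 livers were grouped by vector from the sample labels. For each transcript the authors deposited the expected count, which is an estimate, is not normalized and need not be whole, and FPKM per transcript and per gene, rounded to 2 decimals. The submitters' processing notes name HISAT2, Bowtie2, RSEM and mm10, while the study's methods name STAR, HTSeq and DESeq2, and versions are not given in the sources used here. The library protocol does not state strand, so overlapping antisense genes cannot be told apart.

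The transcripts of a gene were added up and their expected counts rounded. Genes kept by filterByExpr (13431) were fitted in edgeR 4.0.16 (R 4.3.3) with TMM normalization and the vector as factor, and tested by quasi-likelihood. The step was tested on simulated data. SEs came from the quasi-F statistic. DESeq2 1.42.0 and limma 3.58.1 on log2(FPKM + 1) or log2(FPKM + 0.1), other scalings and filters, covariates and leaving out each library were alternatives, 17 in all, beside a fold of 1.5. With 3 against 3, an exact permutation p cannot fall under 0.1. Fold changes of low genes carry counting error. The p-values set the difference between groups against the spread between these libraries, estimated with information shared over genes.

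The members, the lists (7 cell type marker lists, pathway genes, gamma-carboxylated factors) and the tests were chosen with earlier results of these data known. Every member may be named. Full values are given for those called, for C1q, C3, F2 and fibrinogen, and of further pathway genes for those with an adjusted p-value under 0.05 or otherwise the 6 smallest p-values. Per-library values of Masp2, C9 and Plau were added after their values were seen. Fragments shared with other genes, read as gene sums that were not whole within 0.03, occurred in C4b, Masp2 and F5 in all 6 libraries, in C3ar1 and F10 in 5 and in Kng1 and Kng2 in 4. Libraries of 1 group differed by more than sampling noise (chi-square per gene of 24.9 or more). Same-numbered libraries did not deviate together (correlations 0.048, -0.27 and 0.26), so the numbers were not taken as pairs.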

Additional observations from a re-analysis of the deposited data

How the results depend on the processing

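The number of genes called higher lay between 6 and 8 over all alternatives run. The number called lower, 3 in the reported fit, was 1 in limma on log2(FPKM + 1) with and without a filter and on log2(FPKM + 0.1) and at a fold of 1.5, and 1 to 12 when each library was left out. The number at an adjusted p-value under 0.05 was 7 in DESeq2, 5 without the low-count filter, 0 in limma without a filter, and 0 to 8 when each library was left out. The median of the C1q chains lay between 0.64 and 0.99 and that of the hepatocyte-made genes between -0.24 and 0.0058 with each library left out. With a replicate block, 7 genes were higher, 3 lower (Mbl1 in place of C8g) and 1 had an adjusted p-value under 0.05, while over all genes 7 did, against 125. The numbers did not pair the libraries. Among the other values, the sign turned for C3 (-0.044 without GFP 2 to 0.41 without GFP 3), C8a (-0.47 without Cre 1 to 0.087 without Cre 2), C8b (-0.0063 without Cre 3 to 0.46 without Cre 2), C9 (-0.0021 without Cre 1 to 0.59 without Cre 2) and F11 (-0.64 without Cre 1 to 0.15 without Cre 2, and 0.063 with the library name form as covariate). Of the 38 genes not called, 21 turned sign in at least 1 alternative. Of the 10 called none did, and 7 were called in all 17. These 10 did not overlap between groups in CPM, so leaving out a library could hardly turn their sign. Of all genes called, 58.9% were higher, against 72.3% under upper quartile scaling and 83.7% to 84.7% in limma, where the median of all genes shifted by up to 0.138. The cause of these moves was not tested. The depth limits Plat, Plau, C5ar1 and the Cre libraries of Cfd, with counts from 11 per library.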
